A study of Mus musculus with 12 samples.

Results

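The comparison described here is that of adipocyte precursor cells from visceral and subcutaneous white fat of mice on the standard diet, taken as all genes counted in 3 libraries of visceral cells (VWAT_SD) and 3 libraries of subcutaneous cells (SWAT_SD). These were 6 of the 12 libraries of the series, and 14398 genes had a row of counts. All cells came from male C57Bl6/J mice aged 6 to 8 weeks. The visceral depot was perigonadal fat and the subcutaneous depot was inguinal fat, both collected on day 0 without any change of diet. Every library was made from a pool of tissue of 3 mice, so a replicate is a pool and not an animal. The same sorting gate was used throughout: cells without CD45 and CD31, with CD29, CD34 and Sca1, and with or without CD24. The other 6 libraries were sorted in the same way from mice given a 60% lard diet for 3 days (VWAT_HFD and SWAT_HFD), and here they served to estimate the spread between pools and for side-by-side values.

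Adipocyte precursors are fibroblast-like cells of the fat stroma that can divide, secrete matrix and signalling proteins, and differentiate into adipocytes. Perigonadal fat develops inside the abdominal cavity beside the mesothelium and the gonad, and inguinal fat develops under the skin next to the hindlimb and body wall. Transcription factors that pattern the embryo stay active in adult stromal cells and record the position at which the cells arose. Hox genes are the textbook case, with low-numbered paralogues expressed towards the head and high-numbered paralogues towards the tail and limbs.

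The 6 libraries held 22.2 M to 53.7 M reads assigned to genes (M, reads in units of 1e+06), and between 14243 and 14365 genes had a count in each. The 10 genes with most reads took 13.1% to 14.1% of the gene reads of a visceral library and 19.5% to 20.7% of a subcutaneous library. The factors that scaled the libraries for composition were 1.13 to 1.14 in visceral and 0.968 to 0.983 in subcutaneous libraries. The genes behind the sorting gate were high in all 6 libraries. Cd34 read 956 to 1316 CPM (reads of the gene per 1e+06 gene reads, scaled for library composition), and Itgb1, which encodes CD29, read 486 to 621 CPM. Pdgfra, a general fibroblast receptor gene outside the gate, read 762 to 1073 CPM. Of the excluded cell types, Ptprc (CD45) read at most 0.656 CPM and Pecam1 (CD31) at most 6.01 CPM.

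On the standard diet, 3669 of the 14266 genes tested differed between the depots at an adjusted p under 0.05, which was 25.7% of the genes. Of these, 1880 were higher in visceral cells (13.2% of genes tested) and 1789 were higher in subcutaneous cells (12.5%). A difference of at least 2-fold was reached by 917 genes higher in visceral cells (6.43%) and 763 higher in subcutaneous cells (5.35%). At least 16-fold separated 109 visceral and 78 subcutaneous genes of the 14266 tested. For some of these the lower depot had few or no reads, and the fold is then a fitted value and not a bound. All adjusted p-values below are from edgeR's quasi-likelihood test with Benjamini-Hochberg adjustment over all genes tested, log2 differences are visceral minus subcutaneous with their standard error (SE), and p-values measure the spread between the pools. The 3 libraries of each depot did not overlap for 6432 genes (45.1%), with visceral higher for 23.6% and subcutaneous higher for 21.4% of genes tested. Scaling by library size alone moved the median of all genes from 0.02 to 0.24 on the log2 scale, and 79.3% of the calls were then higher in visceral cells, against 51.2% here. In bulk libraries, fewer cells of a type and less RNA of a gene per cell cannot be told apart, which holds for every result below.

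**Figure D1:**
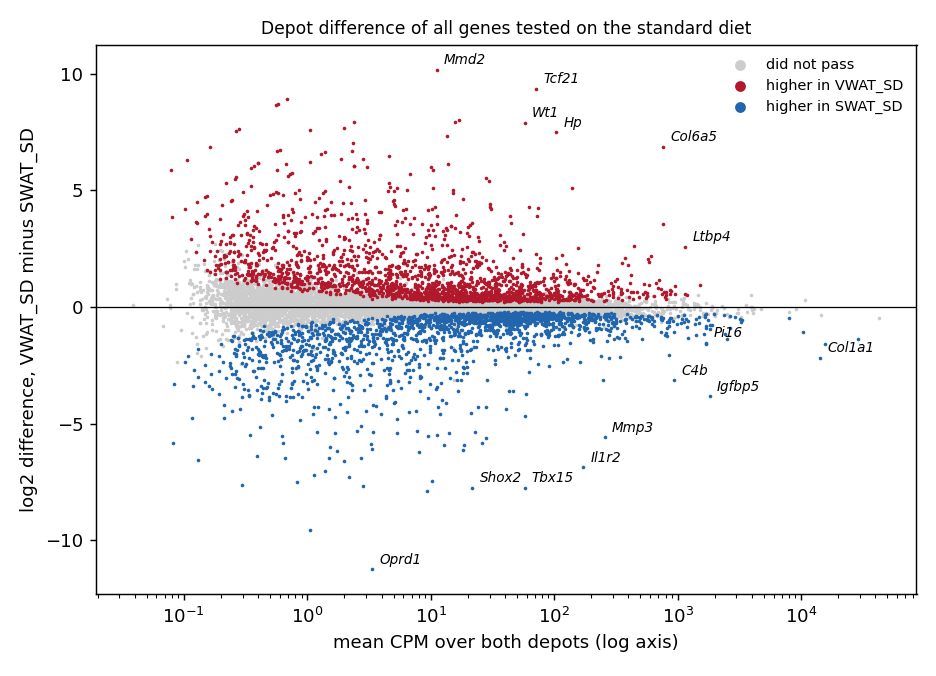
Log2 difference between depots (vertical axis, visceral minus subcutaneous, as fitted) against the mean CPM over both depots (horizontal axis, log scale) for the 14266 genes tested, with 1 point a gene and the 1880 and 1789 genes past the test in colour. The named points include transcription factor genes (Tcf21, Wt1, Tbx15, Shox2) and abundant matrix and secreted genes (Col6a5, Ltbp4, Mmp3, Igfbp5, C4b), and fitted values of genes near 0 counts, such as Oprd1 and Mmd2, are not bounds.

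The sequence before the start of 4 of the genes of widest difference is shown here because they belong to the genes named first in each direction and their upstream sequence holds a match to a searched motif. Each run gives the 250 bases before the RefSeq gene start on the gene's own strand, 5′ to 3′, on build GRCm38.p6, with motif matches in capitals; the counts were made on build mm9 and no coordinates were converted. Tcf21, which encodes a helix-loop-helix factor of visceral mesenchyme, lies on the minus strand with this window at chr10:22820144-22820393. Col6a5 encodes a collagen VI chain and its window is chr9:105960644-105960893, also on the minus strand. Shox2, a homeobox gene of limb development, has its window at chr3:66981772-66982021 on the minus strand. Dhrs9, which encodes a retinol dehydrogenase, has its window at chr2:69380212-69380461 on the plus strand.
Tcf21: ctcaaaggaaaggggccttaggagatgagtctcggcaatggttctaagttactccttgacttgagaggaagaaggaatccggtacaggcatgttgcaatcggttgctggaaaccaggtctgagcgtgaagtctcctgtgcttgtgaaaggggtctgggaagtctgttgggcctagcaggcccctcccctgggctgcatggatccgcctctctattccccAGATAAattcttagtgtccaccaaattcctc
Col6a5: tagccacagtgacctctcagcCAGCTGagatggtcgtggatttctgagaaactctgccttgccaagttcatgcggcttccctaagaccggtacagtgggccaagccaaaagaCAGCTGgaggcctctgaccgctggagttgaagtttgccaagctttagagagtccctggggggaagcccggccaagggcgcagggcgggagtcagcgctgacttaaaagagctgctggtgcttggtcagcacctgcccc
Shox2: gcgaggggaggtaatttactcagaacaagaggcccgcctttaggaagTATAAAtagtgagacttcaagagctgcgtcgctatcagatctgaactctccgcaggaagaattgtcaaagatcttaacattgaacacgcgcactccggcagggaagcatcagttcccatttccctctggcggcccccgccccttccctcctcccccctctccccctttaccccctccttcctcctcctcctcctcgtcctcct
Dhrs9: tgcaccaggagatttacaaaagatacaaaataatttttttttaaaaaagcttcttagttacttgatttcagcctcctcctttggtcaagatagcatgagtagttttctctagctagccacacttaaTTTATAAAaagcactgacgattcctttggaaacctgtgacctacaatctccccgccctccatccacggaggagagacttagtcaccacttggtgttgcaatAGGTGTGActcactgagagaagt

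The capitals mark AGATAA in Tcf21, whose first base lies 31 bases before the start. In Col6a5 they mark CAGCTG at 229 and at 138 bases before the start. Shox2 holds TATAAA at 203 bases before the start. Dhrs9 holds TATAAA on both strands in 1 overlapping stretch that begins 124 bases before the start, and AGGTGTGA at 23 bases. The search covered 6 motifs on both strands: the TATA box TATAAA and the CCAAT box, then AGATAA and CAGCTG as above, the homeobox core TAATTA as well as AGGTGTGA, and none of them contains another. Among the 9775 tested genes whose symbol matched a RefSeq promoter, TATAAA occurred in 6.54%, CCAAT in 36.3%, AGATAA in 5.74%, CAGCTG in 12% and AGGTGTGA in 0.696%, while TAATTA occurred in 2.26%. AGATAA, the core letters bound by GATA factors, and CAGCTG, an E-box, were present in 1 and 2, in that order, of the 9 promoters found for the 15 genes of widest visceral difference. TATAAA and AGGTGTGA, the latter letters of the T-box element, were present in 2 and 1, in that order, of the 10 promoters found for the 15 genes of widest subcutaneous difference. AGATAA was also in 1 of those 10, and CCAAT in 4 of the 9 visceral and 3 of the 10 subcutaneous promoters. A match is a description of the letters and not evidence of a bound site.

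Transcription factors of visceral mesenchyme were higher in visceral precursors. Of 7 tested members of the visceral patterning list, 5 were higher in visceral cells, none was higher in subcutaneous cells and 2 did not pass, with a median log2 difference of 1.47 against 0.02 over all genes. Tcf21 read 141, 145 and 142 CPM in the visceral libraries and 0.287, 0.152 and 0.183 CPM in the subcutaneous libraries. The groups stood far apart, by 653-fold (log2 9.35, SE 0.262, adjusted p = 1.19e-10). Wt1, the Wilms tumour factor of mesothelium, gonad and kidney mesenchyme, read 119, 128 and 97.8 CPM in visceral cells and 0.536, 0.585 and 0.183 CPM in subcutaneous cells. It was 236-fold higher in visceral cells (log2 7.89, SE 0.251, adjusted p = 2.89e-10).

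The other members of the list differed far less or were scarce. Gata4, a factor of heart, gut and gonad mesenchyme, gave 112 reads over the visceral libraries and 2 over the subcutaneous libraries, a ratio whose 95% counting interval was 11.4 to 351. Nr2f1, the nuclear receptor COUP-TFI, read 22.6, 23.0 and 25.3 CPM in visceral cells and 7.92, 8.36 and 9.40 CPM in subcutaneous cells, a 2.78-fold difference (adjusted p = 5.9e-07). Gata6 was 66.9, 67.4 and 65.9 CPM against 42.8, 43.1 and 45.1 CPM, which was 1.53-fold higher in visceral cells (adjusted p = 0.00125). Osr1, a factor of intermediate mesoderm, did not pass (adjusted p = 0.18) at 183 ± 14.8 and 145 ± 9.81 CPM (mean ± SD, n = 3 each). Its libraries did not overlap, which, with visceral higher, was also so for 23.6% of all genes tested. Nr1h4, the bile acid receptor FXR, read 9.52 to 10.5 CPM in visceral and 9.70 to 10.2 CPM in subcutaneous libraries, and the groups overlapped.

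Mesothelial cells line the visceral depot, so their markers stand beside these values. Of 10 tested mesothelial markers, 7 were higher in visceral cells and 1, Krt19, was higher in subcutaneous cells. Their summed level was 75.8 to 90.8 CPM in visceral and 40.1 to 46.9 CPM in subcutaneous libraries, and Rspo1 alone gave 40.9, 42.7 and 51.4 CPM of the visceral sums. Nkain4 read 10.3, 7.93 and 10.8 CPM in visceral and 0.172, 0.715 and 0.504 CPM in subcutaneous cells (log2 4.42). Cldn15, the largest part of the subcutaneous sums, did not pass, at 19.7, 21.0 and 21.9 CPM against 29.0, 23.5 and 31.7 CPM. Other markers were scarcer: Msln read 1.28, 0.487 and 1.62 CPM in visceral cells and had 1 read in all over the subcutaneous libraries. Upk3b read 1.43, 1.46 and 2.18 CPM in visceral and at most 0.108 CPM in subcutaneous cells. Upk1b had no reads in subcutaneous cells and at most 0.443 CPM in visceral cells, where it had 52 reads in all. The part of mesothelial RNA in these results was not tested.

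**Figure D2:**
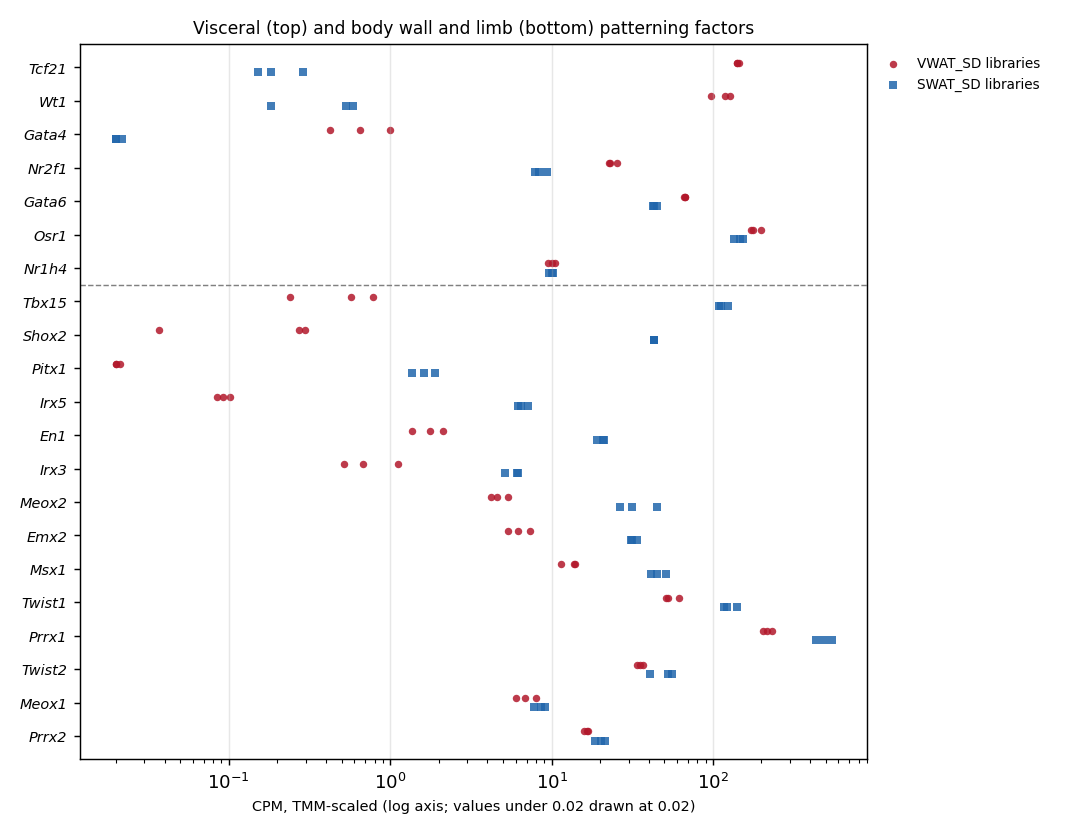
CPM (horizontal axis, log scale, values under 0.02 drawn at 0.02) of each patterning factor in the 3 visceral (red circles) and 3 subcutaneous (blue squares) libraries, with the visceral list above the dashed line and the body wall and limb list below it. Tcf21 and Wt1 sit near or above 100 CPM in visceral cells and below 1 CPM in subcutaneous cells, Tbx15 and Shox2 show the reverse, and the points of Nr1h4 overlap.

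Body wall and limb factors were higher in subcutaneous precursors. Of 14 tested members, 13 were higher in subcutaneous cells and none in visceral cells, with a median log2 difference of -2.59. Tbx15, a T-box gene of the dorsal body wall and an established subcutaneous fat marker, read 0.782, 0.571 and 0.240 CPM in visceral cells and 124, 112 and 109 CPM in subcutaneous cells. It was 214-fold higher in subcutaneous cells (log2 -7.74, SE 0.304, adjusted p = 1.64e-09). Shox2 read 0.272, 0.296 and 0.0369 CPM against 43.2, 43.5 and 42.9 CPM, a 213-fold difference with a narrow spread among the subcutaneous pools. Pitx1, which specifies hindlimb identity, had 1 read in all in visceral cells and 203 in subcutaneous cells, a ratio of 270 with a counting interval of 48.0 to 10734.

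En1, a homeobox gene of ventral ectoderm and dermis precursors, was 11.5-fold higher in subcutaneous cells, at 20.8, 19.1 and 21.1 CPM against 2.13, 1.38 and 1.77 CPM. Meox2, a homeobox gene of limb and somite mesoderm, was 7.19-fold higher, and Emx2, known from limb girdle and urogenital development, was 5.07-fold higher. The homeobox gene Msx1 was 3.49-fold higher. Mesenchymal factors common to both depots differed less. Prrx1 read 232, 216 and 205 CPM in visceral and 437, 544 and 487 CPM in subcutaneous cells, 2.25-fold higher in the latter (adjusted p = 6.05e-06). Twist1 was 2.29-fold higher in subcutaneous cells (adjusted p = 1.4e-06). Twist2 (1.40-fold, adjusted p = 0.0117) and Prrx2 (1.22-fold, adjusted p = 0.0283) were close to the threshold. Both calls were lost with library size alone (adjusted p = 0.119 for Twist2 and 0.594 for Prrx2), which left 11 of the 14 members higher in subcutaneous cells. Without SWAT_SD replicate 1 the adjusted p of Twist2 was 0.0519, and that of Prrx2 rose above 0.05 when any SD library except SWAT_SD replicate 2 was left out, for example to 0.0888 without SWAT_SD replicate 3. Meox1 did not pass, at 5.98 to 7.98 CPM in visceral and 7.75 to 9.05 CPM in subcutaneous libraries.

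Irx genes, homeobox factors arranged in linked groups, were among the widest subcutaneous differences. Irx1 read 0.0340, 0.127 and 0.0738 CPM in visceral cells and 15.9, 19.3 and 20.6 CPM in subcutaneous cells, a 238-fold difference (adjusted p = 6.87e-09). Irx2 was 60.0-fold higher in subcutaneous cells with the lowest adjusted p of all genes tested, 1.05e-10, at 24.1, 25.9 and 26.0 CPM against 0.391, 0.508 and 0.369 CPM. Irx5 was 68.5-fold higher and Irx3, whose locus is known from human obesity genetics, was 7.58-fold higher at 5.13, 6.15 and 6.23 CPM against 0.680, 1.12 and 0.517 CPM. The LIM homeobox genes Lhx8 and Lmx1b belonged to the same set. Lhx8, a gene often used as a marker of brown fat precursors, was 203-fold higher, and Lmx1b, which patterns the dorsal limb, was 59.1-fold higher in subcutaneous cells.

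Of 8 tested T-box factors, Tbx15 included, 5 were higher in subcutaneous cells, none in visceral cells and 3 did not pass; 1 was called in visceral cells without SWAT_SD replicate 1. Tbx5, the forelimb and heart factor, was 176-fold higher at 22.2, 21.9 and 16.5 CPM against 0.0850, 0.212 and 0.0554 CPM. Tbx1 was 14.6-fold higher and Tbx2 was 1.77-fold higher in subcutaneous cells.

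The Hox genes split by position along the clusters. Of 19 tested genes in paralogue groups 1 to 8, 10 were higher in visceral cells, none was higher in subcutaneous cells and 9 did not pass. Of 7 tested genes in groups 9 to 11, none was higher in visceral cells, 6 were higher in subcutaneous cells and 1, Hoxd9, did not pass. Hoxd9 read 2.36, 2.26 and 3.27 CPM in visceral and 1.32, 1.67 and 2.43 CPM in subcutaneous cells, and it passed as higher in visceral cells with library size alone (adjusted p = 0.0193), with limma voom (0.0403) and without SWAT_SD replicate 3 (0.0235). Hoxa5 read 26.6, 28.3 and 32.1 CPM in visceral cells and 5.95, 6.37 and 7.10 CPM in subcutaneous cells, the widest visceral difference of the family (4.51-fold, adjusted p = 2.8e-07). Its neighbours Hoxa6 (2.90-fold), Hoxa7 (2.65-fold), Hoxa4 (2.06-fold) and Hoxa3 (2.56-fold) were also higher in visceral cells. Hoxc4 was 1.99-fold and Hoxb5 2.03-fold higher in visceral cells.

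At the high-numbered end, Hoxc10, a gene of the hindlimb and lower trunk, read 1.09, 0.719 and 0.997 CPM in visceral cells and 23.0, 20.2 and 24.9 CPM in subcutaneous cells. It was 24-fold higher in subcutaneous cells (log2 -4.58, SE 0.156, adjusted p = 4.35e-10). Hoxc11 was 34.5-fold higher at 4.99, 6.32 and 4.45 CPM against 0.0850, 0.148 and 0.222 CPM. Hoxa10 was 11.7-fold, Hoxb9 4.54-fold and Hoxa9 3.94-fold higher in subcutaneous cells. The depots thus crossed within the Hoxa cluster between Hoxa7 and Hoxa9, where Hoxa7 read 19.4, 19.8 and 23.7 CPM in visceral and 7.59, 8.51 and 7.61 CPM in subcutaneous cells.

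In the Hoxc cluster the middle genes were close in both depots. Hoxc6 read 50.2, 46.9 and 52.1 CPM against 51.1, 52.7 and 56.4 CPM, and did not pass. Hoxc8 was 1.59-fold higher in visceral cells (adjusted p = 0.000394). Hoxc9 was 1.41-fold higher in subcutaneous cells (adjusted p = 0.0133), which rose to 0.0655 without VWAT_SD replicate 2 and 0.0541 without SWAT_SD replicate 3. Hoxd8 was 1.38-fold higher in visceral cells (adjusted p = 0.0238), a call lost when any 1 of 4 libraries was left out (0.137 without SWAT_SD replicate 1) and with a replicate block within diet (0.0649). With library size alone, the differences of Hoxb2, Hoxb4, Hoxb6, Hoxc6 and Hoxd3, none of which passed, changed sign, and the call of Hoxc9 was lost (adjusted p = 0.147); the family then had 13 genes higher in visceral and 5 in subcutaneous cells. Hox clusters contain antisense and overlapping transcripts, and whether reads were counted by strand is unknown here. Reads of an overlapping transcript may thus be counted for a Hox gene or left out as ambiguous.

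**Figure D3:**
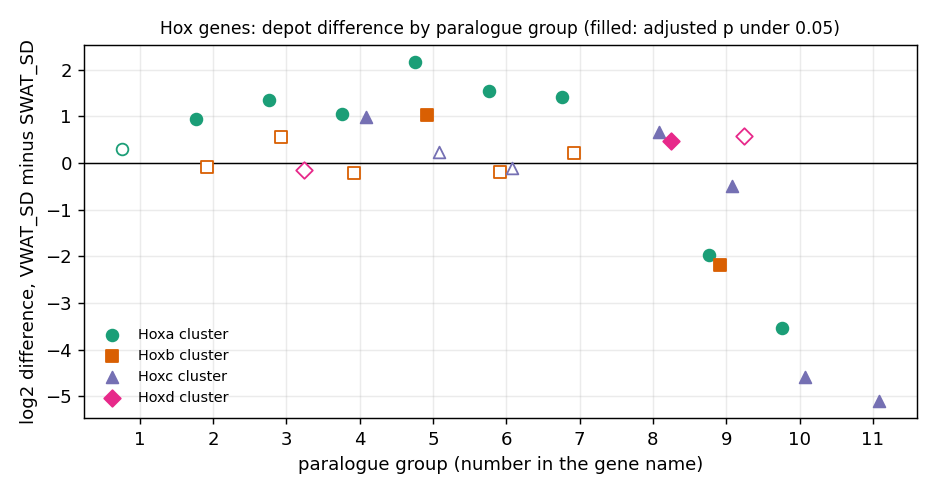
Log2 difference (vertical axis, visceral minus subcutaneous) of each of the 26 tested Hox genes by paralogue group (horizontal axis, points shifted sideways by cluster), with colour and shape for the cluster and filled points for genes past the test. The 10 filled points above 0 lie in groups 1 to 8, and the 6 below 0 lie in groups 9 to 11.

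Meis1, a cofactor that binds DNA with Hox proteins, read 81.1, 83.9 and 88.2 CPM in visceral and 24.9, 27.6 and 25.5 CPM in subcutaneous cells, 3.25-fold higher in visceral cells (adjusted p = 9.87e-08). Meis2 was 1.55-fold higher in visceral cells, and the other 7 tested members of the family of Meis, Pbx and Pknox cofactors did not pass. Of 25 tested adipogenic factors, 5 were higher in visceral and 9 in subcutaneous cells, which became 7 and 5 with library size alone. Gata2, which restrains adipocyte differentiation, read 11.5, 6.98 and 10.7 CPM in visceral and 0.249, 0.476 and 0.137 CPM in subcutaneous cells (31.1-fold, adjusted p = 1.29e-06). Egr2 was 2.38-fold higher in visceral cells. Pparg, the master regulator of adipogenesis, read 12.2, 17 and 14.4 CPM in visceral and 30.5, 26.2 and 40.3 CPM in subcutaneous cells, 2.22-fold higher in the latter (adjusted p = 0.000108). Prdm16, a regulator of thermogenic fat, was 2.50-fold higher and Ebf3 was 3.39-fold higher in subcutaneous cells. The visceral count of this list fell from 5 to 2 without VWAT_SD replicate 3 or SWAT_SD replicate 1, and to 3 without VWAT_SD replicate 2 or SWAT_SD replicate 3.

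The genes of widest difference outside the lists covered enzymes, receptors and secreted proteins. Mmd2, a membrane protein of the progestin and adipoQ receptor family, gave 3521 reads in visceral and 2 in subcutaneous libraries, a ratio of 1321 with a counting interval of 366 to 10916. Gatm, the enzyme of the initial step of creatine synthesis, was 243-fold higher in visceral cells at 18.7, 37.7 and 37.2 CPM against 0.0957, 0.130 and 0.183 CPM. Hp, which encodes the haemoglobin-binding acute-phase protein haptoglobin, read 189, 193 and 238 CPM in visceral and 1.19, 1.02 and 1.33 CPM in subcutaneous cells, a 179-fold difference. Cadps, a factor of dense-core vesicle release, was 160-fold higher and Megf10, a phagocytic receptor gene, was 63.6-fold higher in visceral cells. Rasgrf1 (88.0-fold), Ifltd1 (80.2-fold), St8sia6 (64.3-fold), Cyp2s1 (58.5-fold), Fam83a (51.8-fold) and Hpca (46.2-fold) were also in the visceral set.

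On the subcutaneous side, Oprd1, the delta opioid receptor gene, had no read in any visceral library and read 9.57, 5.04 and 5.64 CPM in subcutaneous cells, at least 380-fold higher on a floor of 3 reads over the group. Il1r2, the decoy receptor for interleukin 1, read 2.40, 3.79 and 2.70 CPM in visceral and 292, 306 and 422 CPM in subcutaneous cells, a 115-fold difference (adjusted p = 6.38e-09). Il18r1, the interleukin 18 receptor gene, was 60.7-fold higher. Akr1c18, an enzyme that reduces progesterone, was 56.8-fold higher at 44.5, 58.7 and 51.2 CPM against 0.969, 1.23 and 0.535 CPM. Ces2b, a carboxylesterase gene with close paralogues, was 89.4-fold higher with a wide spread among the subcutaneous pools. It read 5.44 ± 3.94 CPM there against 0.0571 ± 0.0207 CPM in visceral cells (mean ± SD, n = 3 each). Reads common to Ces2b and those paralogues may be left out or misplaced. Cdh9, a classical cadherin outside the cadherin list, was 44.2-fold higher with an adjusted p of 2.89e-10. All 30 genes of widest difference were also called in the same direction between the depots of the mice on the lard diet. Over all genes tested, 26.8% were called there, as were 73.0% of the calls on the standard diet in the same direction. The 30 genes were chosen for their wide difference on the standard diet.

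**Figure D4:**
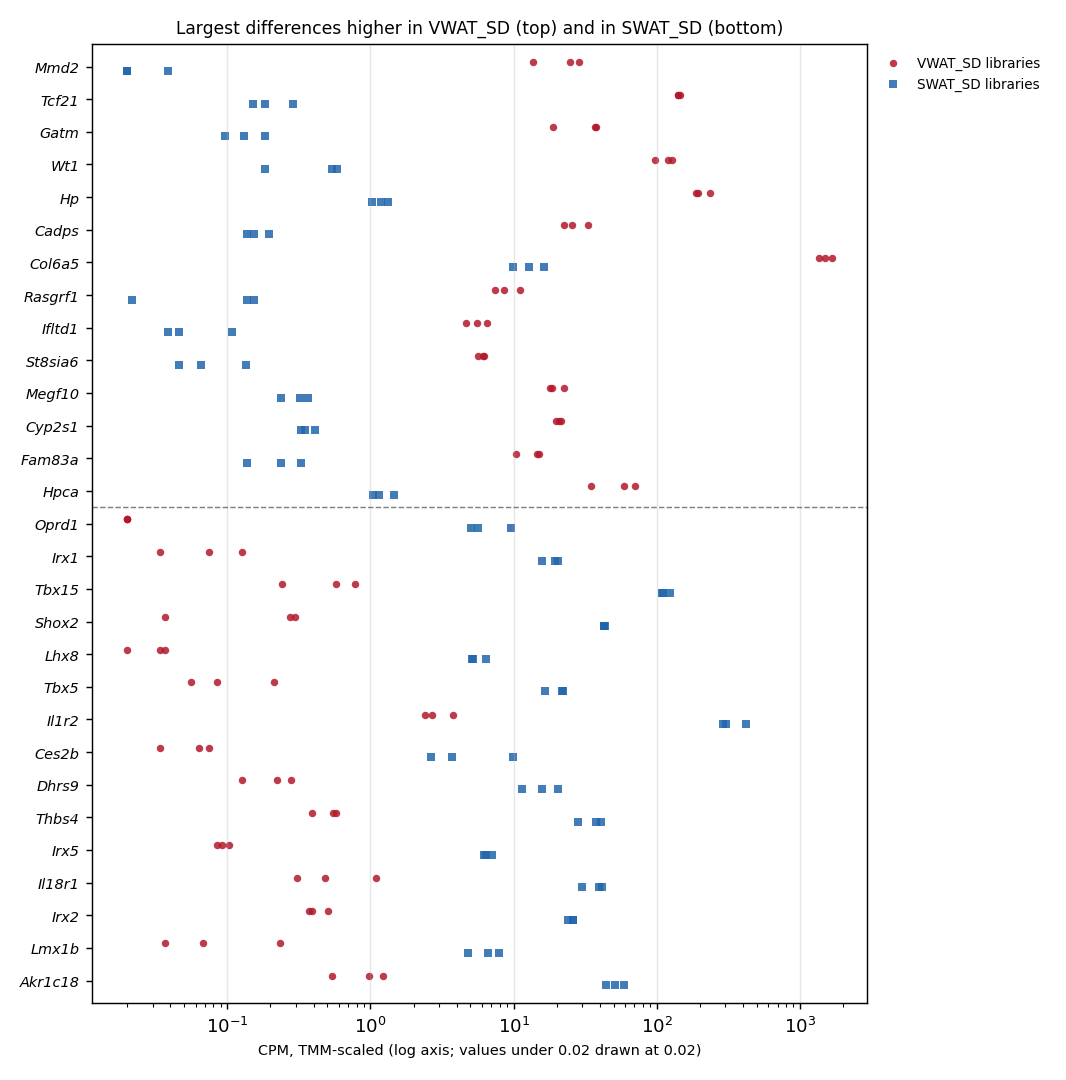
CPM (horizontal axis, log scale, values under 0.02 drawn at 0.02) in the 3 visceral (red circles) and 3 subcutaneous (blue squares) libraries for 14 of the 15 genes of widest difference in visceral cells and the 15 in subcutaneous cells, with genes higher in visceral cells above the dashed line. The absence of overlap was part of the choice of these genes; Oprd1 had no visceral reads, and Col6a5 was at 1370 CPM or more in each visceral library.

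Collagen genes differed in both directions. Of 37 tested, 13 were higher in visceral and 12 in subcutaneous cells, with a median log2 difference of -0.10, which was 0.12 with library size alone. Col6a5 read 1504, 1370 and 1683 CPM in visceral and 16.2, 12.8 and 9.90 CPM in subcutaneous cells, a 116-fold difference (log2 6.86, SE 0.388, adjusted p = 3.37e-08). The basement membrane chain gene Col4a6 was 19.6-fold higher in visceral cells at 119 ± 18.9 against 6.06 ± 0.504 CPM (mean ± SD, n = 3 each), and Col8a2 was 14.2-fold higher. Col6a6 and Col6a4, which lie beside Col6a5, were 2.81-fold and 4.30-fold higher in visceral cells. These 3 chains are related in sequence, so reads common to them may be left out or misplaced. The common collagen VI chains ran the other way, with Col6a3 at 1464, 1469 and 1248 CPM in visceral and 3958, 3468 and 3416 CPM in subcutaneous cells (2.59-fold, adjusted p = 8.09e-06), Col6a1 1.43-fold and Col6a2 1.46-fold higher in subcutaneous cells.

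The fibrillar collagen genes Col1a1, Col1a2 and Col3a1, named for their abundance after their values were seen as were the collagen VI chains other than Col6a5, were higher in subcutaneous cells, while the scarce fibrillar chain gene Col11a1 was 9.08-fold higher in visceral cells (adjusted p = 0.0135), a call lost without VWAT_SD replicate 3 (0.0632), SWAT_SD replicate 1 (0.0784) or SWAT_SD replicate 2 (0.0757). Col1a1 read 5599, 4679 and 5186 CPM in visceral and 22326, 23120 and 24154 CPM in subcutaneous cells, 4.50-fold higher in the latter (adjusted p = 7.28e-05). Col1a2 was 2.99-fold and Col3a1 2.58-fold higher in subcutaneous cells, the latter at 40626, 40956 and 43873 CPM against 17401, 14982 and 16180 CPM. The libraries of the 2 depots did not overlap for any of the 3 genes, which was also so for 45.1% of all genes tested. Of 18 tested genes that fold, trim and crosslink collagen, 12 were higher in subcutaneous cells and 2 in visceral cells, with a median of -0.55. Pcolce, which speeds removal of the procollagen tail, read 329, 329 and 345 CPM in visceral and 1300, 1287 and 1543 CPM in subcutaneous cells (4.12-fold, adjusted p = 1.07e-07). Serpinh1, the collagen chaperone HSP47, was 2.22-fold and the prolyl hydroxylase subunit P4ha2 was 2.06-fold higher in subcutaneous cells. Adamts3, a procollagen amino-end protease, ran the other way at 5.15-fold higher in visceral cells.

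Other matrix genes were mixed. Of 45 tested microfibril and matricellular genes, 16 were higher in visceral and 13 in subcutaneous cells. Ltbp4, which anchors latent TGF-beta to elastic microfibrils, read 2000, 1938 and 2015 CPM in visceral and 321, 348 and 330 CPM in subcutaneous cells (5.97-fold, adjusted p = 1.07e-07). Matn2, a filament-forming matrilin, was 33.9-fold higher in visceral cells at 261, 249 and 298 CPM against 6.10, 8.4 and 9.62 CPM, and Ltbp2 was 8.37-fold higher. Thbs4, a thrombospondin of tendon and muscle matrix, read 0.578, 0.550 and 0.388 CPM in visceral and 28.4, 37.8 and 41.1 CPM in subcutaneous cells, 70.3-fold higher in the latter. Its relative Thbs1, named after its values were seen, ran the other way, 4.50-fold higher in visceral cells at 1114, 1116 and 755 CPM against 220, 228 and 215 CPM. Comp was 6.36-fold and Sparc, also named afterwards, 2.11-fold higher in subcutaneous cells.

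Of 13 tested small leucine-rich proteoglycans, 4 were higher in visceral and 2 in subcutaneous cells. Fmod, encoding fibromodulin, was 8.57-fold higher in visceral cells with a wide spread among them, at 69.3, 39.5 and 86.8 CPM against 5.01, 8.53 and 9.67 CPM. Epyc was 34.8-fold and Bgn, encoding biglycan, 1.94-fold higher in visceral cells, while Omd was 2.30-fold higher in subcutaneous cells. The subcutaneous count of this list was 1 without VWAT_SD or SWAT_SD replicate 2 and 4 without VWAT_HFD replicate 3. Of 16 tested basement membrane genes, 3 were higher in visceral and 4 in subcutaneous cells (6 and 4 with library size alone). Among the laminin chains, Lama1 was 6.84-fold and Lamb1 1.47-fold higher in visceral cells, and Lamb3 (2.99-fold) and Lamb2 (1.48-fold) were higher in subcutaneous cells.

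Of 27 tested matrix proteases and inhibitors, 8 were higher in visceral and 7 in subcutaneous cells, and the visceral count fell to 5 when any 1 of 5 SD libraries was left out (each except VWAT_SD replicate 3). Mmp3, stromelysin, read 13.2, 8.97 and 9.47 CPM in visceral and 426, 467 and 614 CPM in subcutaneous cells, 47.6-fold higher in the latter (log2 -5.57, SE 0.201, adjusted p = 7.54e-10). Mmp28 was 18.9-fold higher, and Mmp2, gelatinase A, was 2.95-fold higher in subcutaneous cells at 2613, 2415 and 2640 CPM against 812, 895 and 888 CPM. Adamts6 was 5.31-fold and Mmp11 2.03-fold higher in visceral cells.

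Among secreted signals, the WNT list had 38 tested members, with 11 higher in visceral and 13 in subcutaneous cells. Of the ligands, Wnt2 read 2.81, 2.54 and 1.57 CPM in visceral and 39.2, 48.9 and 48.9 CPM in subcutaneous cells (19.8-fold, adjusted p = 1.94e-07), and Wnt16 was 14.1-fold higher in subcutaneous cells. Of the receptors, Fzd10 was 4.50-fold higher, and Lgr5, the R-spondin receptor known as a stem cell marker, was 21.9-fold higher in subcutaneous cells at 4.30, 7.66 and 5.09 CPM against 0.459, 0.0846 and 0.203 CPM. The ligand Rspo2, which amplifies WNT signals, was 7.68-fold higher and the inhibitor Dkk2 was 4.84-fold higher there. The secreted inhibitors Sfrp1 and Sfrp2, named after their values were seen, went in opposite directions. Sfrp1 read 356, 328 and 381 CPM in visceral and 95.3, 105 and 104 CPM in subcutaneous cells, 3.50-fold higher in visceral cells, and Sfrp2 read 129, 133 and 114 CPM against 503, 528 and 643 CPM, 4.45-fold higher in subcutaneous cells.

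In the BMP and TGF-beta list, 11 of 40 tested genes were higher in visceral and 14 in subcutaneous cells. Inhbb, the activin B subunit, read 62.6, 59.7 and 53.5 CPM in visceral and 3.48, 4.11 and 1.51 CPM in subcutaneous cells, 18.3-fold higher in visceral cells (adjusted p = 5.35e-07). The atypical ligand gene Bmp3 was 41.6-fold higher in subcutaneous cells at 8.61, 16 and 6.83 CPM against 0.221, 0.381 and 0.166 CPM. Bmp8a was 5.24-fold higher there. Secreted BMP antagonists split: Chrdl1 was 5.13-fold higher in subcutaneous cells, and the scarcer Grem1 was 11.1-fold higher in visceral cells at 0.678 ± 0.238 against 0.0658 ± 0.0405 CPM (mean ± SD, n = 3 each). With library size alone the median of each of these 2 lists turned from below 0 (-0.11 for WNT and -0.05 for BMP and TGF-beta) to above it (0.10 and 0.17), and the counts became 14 and 12 for WNT and 15 and 11 for BMP and TGF-beta.

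Of 47 tested growth factor genes, 21 were higher in subcutaneous and 7 in visceral cells, with a median of -0.49. Igfbp5, an insulin-like growth factor binding protein, read 246, 260 and 214 CPM in visceral and 3682, 3843 and 2699 CPM in subcutaneous cells, 14.2-fold higher in the latter (adjusted p = 4.56e-08). Vegfa, the main endothelial growth factor, was 2.87-fold higher in subcutaneous cells at 215, 203 and 182 CPM against 67.5, 74.5 and 67.2 CPM. Fgf1, a factor required for visceral fat remodelling, ran the other way at 42, 36.8 and 35.2 CPM against 3.35, 3.27 and 3.39 CPM (11.4-fold higher in visceral cells, adjusted p = 3.95e-08). Igf1 was 2.24-fold higher in visceral cells; Igf1 and Vegfa were named after their values were seen.

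Complement genes were higher in subcutaneous cells for 11 of 24 tested and in visceral cells for 2, with a median of -0.39. C4b read 221, 146 and 204 CPM in visceral and 1697, 1658 and 1694 CPM in subcutaneous cells, 8.83-fold higher in the latter (adjusted p = 9.89e-09). Reads common to it and the near-identical C4a may be left out, for want of a unique place, or misplaced. Hc, which encodes C5, was 19.7-fold, C6 11.1-fold and the regulator Clu 4.88-fold higher in subcutaneous cells. Of 36 tested chemokines and cytokines, 8 were higher in visceral and 10 in subcutaneous cells, the former count falling to 4 without SWAT_SD replicate 1, and 10 and 9 with library size alone. Cxcl14 read 56.8, 46.7 and 48.4 CPM in visceral and 416, 402 and 520 CPM in subcutaneous cells (8.79-fold, adjusted p = 3.65e-07). Cxcl13, which attracts B cells, was 12.0-fold, Ccl8 9.21-fold and the interferon-induced Cxcl9 8.84-fold higher in subcutaneous cells. Ccl11, the eosinophil attractant eotaxin, named after its values were seen, was 1.95-fold higher in visceral cells at 720, 866 and 762 CPM against 387, 411 and 406 CPM.

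Retinoid genes make, bind, degrade or respond to retinoic acid. Of 23 tested, 10 were higher in visceral and 7 in subcutaneous cells, with a median of 0.01 that was -0.0014 with DESeq2 size factors and 0.23 with library size alone. The retinol dehydrogenases Adh7 and Dhrs9 were higher in subcutaneous cells, Adh7 by 41.9-fold at 22.6, 30.3 and 29.4 CPM against 0.680, 0.804 and 0.480 CPM. Dhrs9, whose upstream sequence is printed above, read 15.9, 20.3 and 11.4 CPM against 0.221, 0.127 and 0.277 CPM, a 74.5-fold difference. Cyp26b1, which degrades retinoic acid, was 20.5-fold higher in subcutaneous cells at 115, 54.3 and 65.3 CPM against 5.68, 1.63 and 4.01 CPM, and the receptor gene Rxrg was 97.1-fold higher there. Aldh1a3, which makes retinoic acid and was named after its values were seen, was 2.21-fold higher in visceral cells at 283, 293 and 300 CPM against 123, 169 and 104 CPM. Aldh1a7 was 35.2-fold higher in visceral cells with a wide spread, at 4.56, 1.08 and 7.05 CPM.

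Cell surface genes also separated the depots. Of 23 tested integrins, 4 were higher in visceral and 8 in subcutaneous cells, the former count being 7 without SWAT_HFD replicate 2; with library size alone the counts were 8 and 6. Itgb7, a chain best known from lymphocyte homing, read 1.28, 1.02 and 0.923 CPM in visceral and 41.4, 52.8 and 38.9 CPM in subcutaneous cells (41.2-fold, adjusted p = 2.75e-09). Itgb8, which activates latent TGF-beta, was 32.7-fold higher in visceral cells at 11.4, 11.8 and 14.4 CPM against 0.459, 0.303 and 0.367 CPM. Itgb6 was 9.72-fold and the laminin receptor chain Itga7 5.39-fold higher in subcutaneous cells. Leukocyte markers stand beside Itgb7: of 12 tested, 1 was higher in visceral and none in subcutaneous cells, and the list summed to 13.1 to 23.0 CPM in visceral and 13.6 to 16.4 CPM in subcutaneous libraries. The exception was Cd52 at 0.833, 0.0846 and 3.45 CPM in visceral cells (adjusted p = 0.0426). It did not pass with a replicate block (0.0695) or without any SD library except VWAT_SD replicate 2 (0.241 without VWAT_SD replicate 3). It was also not called without VWAT_HFD replicate 1 or without VWAT_HFD replicate 2.

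Of 21 tested cadherins and protocadherins, 5 were higher in visceral and 4 in subcutaneous cells. Pcdh12 was 24.2-fold higher in visceral cells at 8.98, 9.33 and 10.5 CPM against 0.325, 0.433 and 0.458 CPM. Pcdh20 was 23.2-fold higher in subcutaneous cells at 40.8, 44.9 and 36.2 CPM against 1.72, 1.88 and 1.66 CPM. Of 57 tested axon guidance genes, 13 were higher in visceral and 12 in subcutaneous cells (22 and 9 with library size alone). Slit2, a secreted repellent, read 84.0, 77.6 and 84.6 CPM in visceral and 7.44, 7.45 and 4.95 CPM in subcutaneous cells (12.2-fold, adjusted p = 2.56e-08). The ephrin receptors went both ways, with Epha2 4.40-fold higher in visceral and Epha3 5.51-fold higher in subcutaneous cells. Sema4d was 14.5-fold higher in subcutaneous cells.

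Of 31 tested receptor tyrosine kinases, 8 were higher in visceral and 4 in subcutaneous cells, and the former count fell to 5 without SWAT_SD replicate 2 or 3. Ptk7, a planar polarity receptor, read 34.8, 34.8 and 35.3 CPM in visceral and 1.32, 1.45 and 1.51 CPM in subcutaneous cells (24.7-fold, adjusted p = 7.54e-10). Ntrk3, the neurotrophin 3 receptor, was 3.25-fold higher in visceral cells at 21.2, 24.2 and 22.2 CPM against 7.35, 7.60 and 5.68 CPM. Erbb3 was 2.70-fold higher in subcutaneous cells, as was the abundant Egfr, named after its values were seen, by 1.67-fold. Schwann cells also express Erbb3: of 7 tested Schwann cell markers, 4 were higher in subcutaneous and 1 in visceral cells, and their summed level was 39.3 to 45.3 CPM in subcutaneous and 16.7 to 19.5 CPM in visceral libraries. The visceral count was 0 without VWAT_SD replicate 1, SWAT_SD replicate 1 or SWAT_SD replicate 2. Mbp gave most of the subcutaneous sum, at 22.7, 28.3 and 23.5 CPM against 4.54, 5.56 and 5.21 CPM in visceral cells; the part of Schwann cell RNA was not tested.

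Hormone, lipid and peptide receptors were higher in visceral cells for 12 and in subcutaneous cells for 14 of 41 tested (15 and 13 with library size alone). Ptger4, a prostaglandin E2 receptor, read 41.9, 40.2 and 27.8 CPM in visceral and 7.86, 7.71 and 5.64 CPM in subcutaneous cells (5.12-fold, adjusted p = 4.99e-07). Npr3, the natriuretic peptide clearance receptor, was 6.31-fold and the corticotropin receptor gene Mc2r 20.4-fold higher in visceral cells, Mc2r at only 0.906 ± 0.113 CPM. Npy1r, a neuropeptide Y receptor, was 11.9-fold higher in subcutaneous cells at 5.24, 5.59 and 5.27 CPM against 0.646, 0.233 and 0.443 CPM. Esr1, the oestrogen receptor alpha gene, read 41.6, 44.7 and 29.4 CPM in visceral and 142, 132 and 98.2 CPM in subcutaneous cells, 3.22-fold higher in the latter. Avpr1a, a vasopressin receptor, was 3.13-fold higher in visceral cells; Esr1 and Avpr1a were named after their values were seen. Star, the steroid hormone synthesis gene kept among the testicular markers, read 9.06, 8.48 and 9.95 CPM in visceral and 2.37, 1.73 and 1.97 CPM in subcutaneous cells (4.50-fold, adjusted p = 3.29e-07).

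**Figure D5:**
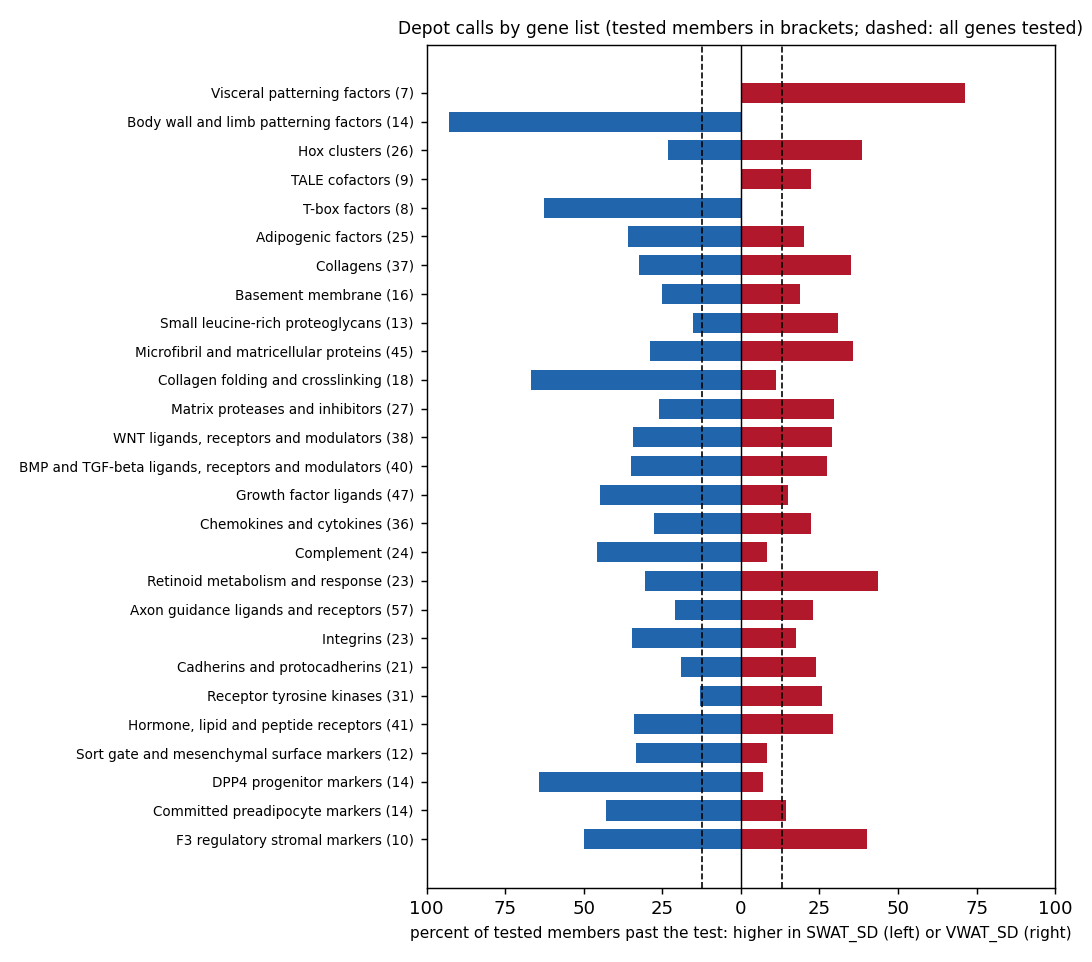
Percent of the tested members of each gene list, leaving out markers of other cell types, past the test (number tested in brackets), higher in subcutaneous cells to the left and in visceral cells to the right, with dashed lines at the shares over all genes tested (12.5% and 13.2%). The body wall and limb list, collagen folding and DPP4 progenitor lists reach farthest to the left and the visceral patterning list farthest to the right among the lists drawn, while several lists hold calls in both directions.

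Markers of precursor states were also compared. DPP4-positive cells are an early, fibroblast-like progenitor population of fat, and of 14 tested markers 9 were higher in subcutaneous cells and 1, Cd55, in visceral cells (1.71-fold), with a median of -1.10. Dpp4 read 205, 193 and 171 CPM in visceral and 442, 540 and 444 CPM in subcutaneous cells (2.50-fold, adjusted p = 4.79e-06). Pi16 read 806, 889 and 934 CPM against 2432, 2751 and 2377 CPM, 2.88-fold higher in subcutaneous cells (adjusted p = 6.38e-07). Sbsn was 3.06-fold and Tmem158 3.44-fold higher there. Libraries of the 2 depots did not overlap for any of these 4 genes, which was also so for 45.1% of all genes tested. Of 14 tested markers of committed preadipocytes, 2 were higher in visceral and 6 in subcutaneous cells, and 4 in each with library size alone. Cd36 was 2.51-fold, Plin2 1.94-fold and Lpl 1.59-fold higher in subcutaneous cells, and Ggt5 was 1.96-fold higher in visceral cells. The F3-positive regulatory stromal markers split, with 4 of 10 higher in visceral cells, Mgp among them at 338, 190 and 269 CPM against 32.0, 48.8 and 60.0 CPM (5.68-fold), and 5 higher in subcutaneous cells, such as Clec11a (4.18-fold) and Igfbp3 (3.07-fold).

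Of 12 tested genes of the sorting gate and mesenchymal surface, 1 was higher in visceral cells, 4 were higher in subcutaneous cells and 7 did not pass; with library size alone 3 were higher in each. Ly6a, which encodes Sca1, read 488, 435 and 489 CPM in visceral and 900, 923 and 1143 CPM in subcutaneous cells (2.10-fold, adjusted p = 0.000218). Cd24a was 5.38-fold higher in subcutaneous cells at 12.8, 17.1 and 10.9 CPM against 2.16, 3.13 and 2.36 CPM. Both genes have close copies in the mouse genome, so reads common to the copies may be left out or misplaced. Cd34 was 1.29-fold higher in subcutaneous cells (adjusted p = 0.0344), a call lost with library size alone and when any SD library except SWAT_SD replicate 1 was left out (0.114 without VWAT_SD replicate 2). Itgb1 and Pdgfra did not pass. Thy1 was 1.99-fold higher in subcutaneous cells. Eng was 1.24-fold higher in visceral cells (adjusted p = 0.0418), which a replicate block moved to 0.0586 and leaving out SWAT_SD replicate 1 to 0.205.

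Markers of adipocytes, vessels and epithelia are given for the whole gate. Adipoq read at most 0.408 CPM in any of the 6 libraries, and of 7 tested adipocyte markers Plin4 was 49.2-fold higher in subcutaneous cells at 62.9, 52.7 and 49.8 CPM against 1.43, 1.14 and 0.775 CPM, and Lipe 1.86-fold higher in visceral cells. Summed, the adipocyte markers read 20.1 to 24.6 CPM in visceral and 63.8 to 74.3 CPM in subcutaneous libraries. Plin4 gave most of the subcutaneous sums. The median log2 difference of the list was 0.68, towards visceral cells. Of 11 tested endothelial markers Ramp2 alone passed, 2.30-fold higher in subcutaneous cells. The list summed to 263 to 318 CPM in visceral and 373 to 459 CPM in subcutaneous libraries, most of it Tek. The median log2 difference of the list was 0.65, towards visceral cells. Pecam1 read 5.14, 6.01 and 2.38 CPM in visceral and 3.18, 3.55 and 1.56 CPM in subcutaneous libraries. Mural cell markers went both ways, with 4 of 10 higher in visceral cells, led by Des at 76.4, 77.5 and 92.6 CPM against 4.78, 6.15 and 5.55 CPM (15.0-fold), and 3 higher in subcutaneous cells, led by Abcc9 at 91.6, 89.1 and 76.4 CPM against 8.03, 7.09 and 6.29 CPM (12.0-fold). The pericyte gene Rgs5 read at most 6.45 CPM in either depot. Of 4 tested epithelial markers, Dsp was 66.3-fold and Perp 6.14-fold higher in visceral cells at low levels, and skeletal muscle markers summed to at most 3.74 CPM. The part of these cell types in the results above was not tested.

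The depot difference was also measured between the libraries of the mice on the lard diet, whose levels did not enter the difference on the standard diet but which shared its model and its estimate of the spread. There 3830 genes (26.8%) differed between the depots, 2678 of them in the same direction as on the standard diet, which was 73.0% of the calls on the standard diet and 69.9% of those on the lard diet. No gene was called in opposite directions. Tcf21 differed by 8.42 and Tbx15 by -7.60 on the log2 scale in the lard-fed mice, against 9.35 and -7.74 on the standard diet, and Hoxc10 by -5.63 against -4.58. No gene passed edgeR's test of whether the depot difference itself differed between diets (0.00% of 14266), with 1026 genes at an unadjusted p under 0.05. DESeq2 called 35 genes in that test, edgeR with a replicate block 1, and edgeR without VWAT_HFD replicate 3 called 135.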

How the data were processed

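RNA sequencing was done on sorted adipocyte precursors of male mice, with each library made from a pool of 3 mice, poly(A) RNA, a kit that marks the strand with dUTP, and 75 bp single-end reads, per the labels' protocols. The authors deposited raw read counts per gene; TopHat, HTSeq and mm9 are named in the submitters' processing notes, and versions, annotation and strand setting are not given in the sources used here. Of all counted reads in the 6 libraries, those without a feature were 4.17% to 5.50%, ambiguous reads 1.77% to 1.95% and reads without a unique place 18.5% to 20.8%; these 3 entries were left out.

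Groups came from the labels. Counts of all 12 libraries were fitted in 1 model of 4 groups with edgeR 4.0.16 in R 4.3.3, with TMM scaling, genes filtered by expression within groups (14266 of 14398 kept, 132 removed), robust quasi-likelihood F tests and Benjamini-Hochberg adjustment, and a gene was called at an adjusted p under 0.05. CPM values are TMM-scaled. Alternatives used DESeq2 1.42.0 and limma 3.58.1. In counts simulated for this comparison over 14228 genes, 67 genes were changed 1.5-fold, 71 genes 2-fold and 62 genes 4-fold. The changed genes had a mean of at least 1 CPM, and all others had equal means in all groups. The test recovered 46.3% of 1.5-fold, 83.1% of 2-fold and 96.8% of 4-fold changes, and 9 false calls were 5.66% of calls. Far more genes were called in the real counts, so these shares need not hold there. Figures were drawn with matplotlib 3.10.9, and promoters were matched by symbol to RefSeq on GRCm38.p6. No mm9 annotation was used, so CPM values are not corrected for gene length. Sums over genes and words such as scarce or abundant therefore refer to reads alone.

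The 36 gene lists (873 genes, 714 tested) and the rule for named genes were chosen with earlier results of these data known. By the rule, the text may name the 15 widest differences in each direction with a mean of at least 5 CPM in the higher depot and no overlap, all members of the patterning lists and Hox clusters, up to 6 passing members with the widest difference in each other list, and the 5 lowest adjusted p-values; predicted gene models were left out of the widest differences. Some genes the rule chose are not reported here. A further 21 genes were named after their values were seen, as were Cd55, Itgb1, Pdgfra, Tek, Ptprc, Pecam1, Adipoq, Rgs5, Cldn15 and the genes of the closing observations. Libraries of the same number in both depots on the standard diet deviated together (correlations across genes of 0.177, 0.178 and 0.398 for numbers 1, 2 and 3). The numbers were therefore taken to pair them in the alternatives with a replicate block, while the model reported had groups only and no pairing. The pairing comes from the data and not from the labels, and it is weak: the unmatched VWAT 2 and SWAT 1 gave 0.157, and the matched HFD libraries gave -0.0754, 0.184 and 0.0698. The replicate libraries were distinct, and intervals for genes with 3 reads or fewer are 95% and cover counting error only.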

Additional observations from a re-analysis of the deposited data

How the results depend on the processing

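Of 22 alternatives, each named gene was tested in 19 to 22; in those, 191 of the 213 called genes named by the rule stayed called and none changed direction, and all 21 genes named afterwards stayed called. Of 13 genes named but not called, 4 (Osr1, Hoxb3, Hoxc5 and Hoxd9) passed in some alternative, each with library size alone among them. Without any 1 library the total ran from 2865 (without SWAT_SD replicate 2) to 4411 calls (without VWAT_HFD replicate 3). Other totals were 3678 with DESeq2 size factors, 3676 without a filter, 4019 with DESeq2, 3736 with limma voom, 4243 with the 6 SD libraries alone and 3137 with the SD libraries thinned to the smallest. A mean CPM of at least 5 left 9943 genes tested, against 14266, and 2347 calls, 1214 higher in visceral and 1133 higher in subcutaneous cells. Of these, 350 and 306 reached 2-fold, against 917 and 763 in the comparison reported. Many of the 2-fold calls reported were thus of genes under that mean. Library size alone gave 4279 higher in visceral and 1118 higher in subcutaneous cells; the cause was not tested. The test of the depot difference between diets called 35 genes with DESeq2 and from 0 to 135 when 1 library was left out.

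With the replicate block for pairing, 3663 genes were called between depots and 1 in the test between diets; a block within diet, added after seeing the data, gave 3916. These blocks lost Eng, Cd52, Hoxd8 and Cxcl5 and no other named call. Reversals concerned genes that were not called. Nr1h4 was -0.0035 with DESeq2 size factors, -0.0025 with DESeq2 and between -0.0332 and 0.0443 when 1 library was left out. With library size alone Hoxb2 was 0.132, Hoxb4 0.0129, Hoxb6 0.0147, Hoxc6 0.117 and Hoxd3 0.0617. Hoxb7 was -0.0363 after thinning, and Hoxd3 ran from -0.510 to 0.0909 when 1 library was left out. Depth limits what can be said of genes under 1 CPM.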

Other observations

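Genes called at 2-fold or more in the same direction were looked for side by side in RefSeq gene order, a description chosen after the values were seen. Among 13844 tested genes placed in that order, 40 runs of at least 3 adjacent tested genes were found. Of these, 18 were higher in visceral and 22 in subcutaneous cells, and the longest held 5. Over all genes tested, 6.43% were called at 2-fold or more in visceral and 5.35% in subcutaneous cells. Whether the runs exceed the number such shares give was not tested. Some members were scarce in both depots, such as Gbp10 at a mean of 0.0911 CPM in visceral and 0.533 CPM in subcutaneous cells. On chromosome 8, Irx3, 4933436C20Rik, Irx5, Mmp2 and Lpcat2 were all higher in subcutaneous cells. The interferon-induced GTPase genes Gbp4, Gbp10, Gbp6 and Gbp11 on chromosome 5, and Tgtp2 and Ifi47 on chromosome 11, formed subcutaneous runs. Krt20, Krt23, Krt36 and Krt19, keratin genes on chromosome 11, formed another. The interleukin 1 receptor family genes Il1rl2, Il1rl1 and Il18r1 on chromosome 1 were higher in subcutaneous cells. Visceral runs held Col6a6, Col6a5 and Col6a4 on chromosome 9, and Rassf9, Alx1, Slc6a15, Tmtc2 and Gm15663 on chromosome 10. Reads common to related neighbours may be left out or misplaced.

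Of the epididymal and testicular markers, Lcn8 and Star were tested and both were higher in visceral cells. Lcn8, an epididymal lipocalin gene, read 0.340, 0.381 and 0.425 CPM in the visceral libraries and at most 0.0574 CPM in the subcutaneous ones (8.78-fold, adjusted p = 0.00193). The epididymal secreted protein gene Crisp1 read 2.30, 0 and 7.55 CPM in VWAT_SD replicates 1, 2 and 3 and had no reads in the subcutaneous libraries. Adam7, also of the epididymis, read 0.646, 0 and 1.81 CPM in the same visceral libraries and likewise had none in the subcutaneous ones. Both fell under the filter in the comparison reported, but they were tested in some alternatives. All 4 markers were called higher in visceral cells without a filter, without VWAT_SD replicate 2 and without any 1 of the 6 HFD libraries.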
